A study of Mus musculus with 15 samples.

Results

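The study displayed 10 genes from its whole-blood RNA sequencing: Stard8, Sfxn5, Fnip2, Mtus1, Ctdspl, Asprv1, Rab44, Hk3, Mcemp1 and Bst1, which are 10 of the 55416 gene identifiers counted. The study chose them by the late ND against early ND comparison in these same libraries, so their fold changes between those groups are given as a description with no test. All 10 have been grouped as CD8 memory genes, but only 6 of them (Stard8, Sfxn5, Fnip2, Mtus1, Ctdspl and Asprv1) stand under a set that compares central memory with naive CD8 T cells, and the other 4 (Rab44, Hk3, Mcemp1 and Bst1) stand under a set for myeloid leukocyte mediated immunity. The measurement asked of them is whether, from mouse to mouse, their RNA went with that of neutrophils or with that of T cells.

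Blood came from 15 C57BL/6 mice, 5 in each of 3 groups, with 1 library per mouse. Per the labels, 4MOSC1 tumor cells, a mouse oral squamous carcinoma line, had been placed in the tongue and grown for 10 days. One group was untreated with no surgery, and both other groups received a pair of doses of αCTLA-4, an antibody against the T cell checkpoint receptor CTLA-4, and an early or a late neck dissection (ND), the surgical removal of the lymph nodes of the neck. The labels give the tumor growth for all 3 groups, the untreated one included. No surgery-only or antibody-only blood was among these libraries, so antibody and surgery cannot be told apart against the untreated group, and the study places the bleed before the late ND in one passage and after it in another. Total gene counts ran from 5527108 to 7182346 in the early ND group, from 5862888 to 10796099 in the untreated group and from 7849602 to 13924361 in the late ND group. Hemoglobin genes took 38.3 to 64.1% of the counts in early ND, 31.6 to 61.7% in untreated and 14.9 to 29.3% in late ND libraries, and 3 libraries (replicate 2 of untreated and replicates 2 and 3 of late ND) were poor in 18S ribosomal RNA (Rn18s-rs5), at 0.0313 to 0.0766% of counts against at least 1.34% in the others.

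Whole blood mixes many cell types, and in mice neutrophils and lymphocytes are its main leukocytes. Neutrophils carry S100a8, a subunit of the calcium-binding complex calprotectin, and Csf3r, the receptor for the growth factor G-CSF that drives their production. T cells carry Cd3e, a signaling chain of the T cell receptor complex, and CD8 T cells add the coreceptor chain Cd8a. A level in bulk blood is a share of the library, so fewer cells of a type and less RNA per cell cannot be told apart, and a rise in the RNA of one cell type lowers the share of all the others.

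The CD8 memory set members have varied roles. Stard8 encodes a GTPase-activating protein with a START lipid-binding domain (chromosome X, 98046831 to 98118339, plus strand, GRCm39, as are all gene positions). Sfxn5 encodes a sideroflexin, a family of mitochondrial membrane carriers (chromosome 6, 85190031 to 85311047, minus strand). Fnip2 encodes a folliculin-interacting protein of the nutrient-sensing pathway (chromosome 3, 79363280 to 79475188, minus strand), Mtus1 a microtubule-associated protein (chromosome 8, 41443770 to 41605327, minus strand), and Ctdspl a small phosphatase of the CTD family (chromosome 9, 118755482 to 118873187, plus strand). Asprv1, a retroviral-like aspartic protease best known from the skin, lies on chromosome 6 (86595254 to 86606692, plus strand).

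Among the myeloid set members, Rab44 encodes a large Rab GTPase linked to granule release (chromosome 17, 29333009 to 29367954, plus strand). Hk3 encodes a hexokinase, the enzyme type that starts glycolysis (chromosome 13, 55153798 to 55169276, minus strand). Mcemp1 encodes a mast cell-expressed membrane protein (chromosome 8, 3715754 to 3719259, plus strand), and Bst1 encodes CD157, a surface enzyme of NAD metabolism on myeloid and stromal cells (chromosome 5, 43976227 to 44001328, plus strand). All 10 are protein-coding, and counts were taken over their exons. The exons of Mtus1 overlapped genes on the opposite strand over 16.2% of their bases and those of Hk3 over 6.71%, with at most 2.95% for the other members, and none shared bases with a gene on their own strand. Whether the counting used strand is not given in the sources used here, so reads from such stretches cannot be assigned with certainty.

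RefSeq promoters (build GRCm38.p6, 250 bases before to 50 bases after the gene start) were on hand for 7 of the 10 members. Those of Hk3 and Mcemp1, both of which passed the test against neutrophil genes given below, and of Stard8 and Ctdspl, neither of which did, are printed 5′ to 3′ on the gene's strand, with capitals marking matches on either strand to any of 5 short motifs.
Hk3, chr13:55021336-55021635, minus strand: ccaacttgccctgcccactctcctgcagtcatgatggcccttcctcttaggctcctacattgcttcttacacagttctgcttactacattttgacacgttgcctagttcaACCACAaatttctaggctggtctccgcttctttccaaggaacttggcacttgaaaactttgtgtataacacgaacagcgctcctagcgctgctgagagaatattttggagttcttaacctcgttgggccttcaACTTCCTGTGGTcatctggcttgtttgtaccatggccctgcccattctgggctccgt
Mcemp1, chr8:3665512-3665811, plus strand: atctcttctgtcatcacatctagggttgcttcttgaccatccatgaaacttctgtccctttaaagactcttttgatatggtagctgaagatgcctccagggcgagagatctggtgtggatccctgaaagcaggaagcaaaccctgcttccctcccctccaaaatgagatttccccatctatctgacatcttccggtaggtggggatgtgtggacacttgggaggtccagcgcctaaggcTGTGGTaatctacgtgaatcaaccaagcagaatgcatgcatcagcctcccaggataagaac
Stard8, chrX:99042331-99042630, plus strand: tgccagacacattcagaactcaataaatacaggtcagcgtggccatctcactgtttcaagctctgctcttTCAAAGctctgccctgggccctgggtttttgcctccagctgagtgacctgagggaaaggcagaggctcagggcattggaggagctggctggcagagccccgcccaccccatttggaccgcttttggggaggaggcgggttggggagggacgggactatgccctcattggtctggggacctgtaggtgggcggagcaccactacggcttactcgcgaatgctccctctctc
Ctdspl, chr9:118926286-118926585, plus strand: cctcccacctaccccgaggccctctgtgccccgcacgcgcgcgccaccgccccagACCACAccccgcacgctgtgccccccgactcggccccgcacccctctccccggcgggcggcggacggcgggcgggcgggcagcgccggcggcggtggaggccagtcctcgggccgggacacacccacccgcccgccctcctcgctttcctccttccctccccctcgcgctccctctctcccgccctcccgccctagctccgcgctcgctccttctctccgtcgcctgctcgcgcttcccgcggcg
The motifs searched were TTNCNNAA for C/EBP factors, GAGGAAGT for PU.1, GGAAGT for ETS factors (which the PU.1 motif contains), TGTGGT for RUNX factors and CTTTGA for TCF/LEF factors. Among all 32851 promoters of this length, 40.7% held the C/EBP motif, 3.2% the PU.1 motif, 23.8% the ETS motif, 16.8% the RUNX motif and 16% the TCF/LEF motif. Of the 7 members, 0 held the C/EBP or PU.1 letters, 1 held the ETS letters (Hk3, at -7 from the start), 4 held the RUNX letters (Sfxn5, Mcemp1, Ctdspl and Hk3) and 1 held the TCF/LEF letters (Stard8, at -180). Base composition varied widely, with 79.3% G or C and 43 CpG dinucleotides for Ctdspl and 78.0% and 44 for Fnip2, against 49.0% and 7 for Hk3, 49.3% and 4 for Mcemp1, 57.0% and 4 for Asprv1, 59.3% and 9 for Stard8 and 61.0% and 21 for Sfxn5. The median over all promoters was 52.7%, with quartiles of 45.7 and 61.7%.

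Levels are given as TMM-normalized CPM, that is, counts scaled to a common library size after a correction for library composition. Per kilobase of exon, the scale on which genes can be set against each other, Asprv1 was the most abundant member at 68.4 ± 34.7 CPM per kb (mean ± SD over all 15 libraries). It was followed by Mcemp1 at 38.8 ± 17.0, Bst1 at 20.1 ± 8.99, Hk3 at 18.5 ± 8.01, Rab44 at 17.4 ± 7.57, Mtus1 at 8.43 ± 3.52, Sfxn5 at 3.95 ± 1.67, Fnip2 at 1.55 ± 0.69, Stard8 at 0.713 ± 0.29 and Ctdspl at 0.301 ± 0.16. Neighbors in this order had overlapping SDs except for Sfxn5 and Fnip2. These SDs span the 3 groups and all members come from the same libraries, so overlap does not mean that neighbors were level. Asprv1, for example, lay above Mcemp1 in every library. On this scale S100a8 stood at 1924, Csf3r at 277, Cd8a at 11 and Cd3e at 8.30 CPM per kb. Ctdspl rested on 4 to 95 counts per library and Stard8 on 6 to 181, whereas Sfxn5 had 120 to 3142 and Asprv1 147 to 7532, so counting error weighs most on Ctdspl and Stard8.

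Stard8 was at 8.17, 7.25, 6.26, 7.83 and 7.45 CPM in late ND replicates 1 to 5, at 3.18, 3.31, 2.05, 5.05 and 5.24 CPM in early ND replicates 1 to 5, and at 6.03, 3.90, 1.73, 3.89 and 4.68 CPM in untreated replicates 1 to 5. Every late ND library lay above every library of both other groups, which overlapped. Late ND libraries were also the closest together, at 7.39 ± 0.72 CPM (SD, n = 5) against 3.77 ± 1.35 in early ND and 4.04 ± 1.56 in untreated blood. Late ND values rested on 90 to 181 counts, against 14 to 25 in early ND and 6 to 56 in untreated blood. The part of counting error in these spreads was not tested.

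Ctdspl read 4.99, 3.81, 2.23, 7.02 and 5.50 CPM in late ND, 1.53, 0.66, 2.46, 3.25 and 1.96 CPM in early ND, and 2.81, 1.25, 4.32, 4.56 and 3.71 CPM in untreated blood, in replicate order. The groups overlapped, since replicate 3 of late ND fell below 2 early ND libraries. The lowest value in early ND rested on 4 counts and the lowest in untreated blood on 18.

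Sfxn5 was at 97.7, 76.6, 137.6, 163.4 and 106.7 CPM in late ND, 47.4, 35.5, 81.8, 43.3 and 75.7 CPM in early ND, and 52.3, 90.8, 56.7, 90.9 and 101.4 CPM in untreated blood. Of the 5 late ND libraries, 4 exceeded every early ND library and 3 exceeded every untreated library. Asprv1 was at 173.4, 146.4, 329.9, 295.8 and 200.7 CPM in late ND, 90.8, 77.5, 211.7, 53.0 and 87.3 CPM in early ND, and 124.6, 161.0, 70.2, 164.6 and 186.2 CPM in untreated blood. For Asprv1, replicate 3 of early ND stood far above the rest of its group and above 3 of the 5 late ND libraries.

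Mcemp1 was at 131.5, 80.4, 136.0, 172.4 and 99.0 CPM in late ND, 45.6, 31.6, 75, 41.9 and 79.5 CPM in early ND, and 76.4, 127.5, 57.6, 118.1 and 124.3 CPM in untreated blood. Late ND lay above early ND in every library, narrowly, and overlapped untreated blood broadly. Hk3 was at 101.0, 79.4, 144.1, 185.2 and 112.7 CPM in late ND, 54.9, 42.7, 68.6, 42.9 and 81.4 CPM in early ND, and 74.0, 106.1, 54.1, 107.7 and 87.9 CPM in untreated blood. One late ND library fell below the highest early ND library for Hk3.

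The remaining members had the same order of group medians. Fnip2 had medians of 19.4 CPM in late ND (12.6 to 32.9), 12.4 in untreated (8.44 to 16.4) and 10.3 in early ND blood (6.29 to 14.5). Mtus1 had medians of 127.5 CPM (77.6 to 180.6), 104.1 (57.6 to 121.7) and 58.3 (32.3 to 91.7) in the same order of groups. Rab44 had medians of 124.7 CPM (84.2 to 179.6), 88.1 (40.6 to 109.9) and 54.1 (34.8 to 88.2), and Bst1 of 98.4 CPM (54.1 to 127.0), 70.8 (45.8 to 77.9) and 32.8 (24.4 to 75.4). For all 4 the ranges of late and early ND overlapped.

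**Figure D1:**
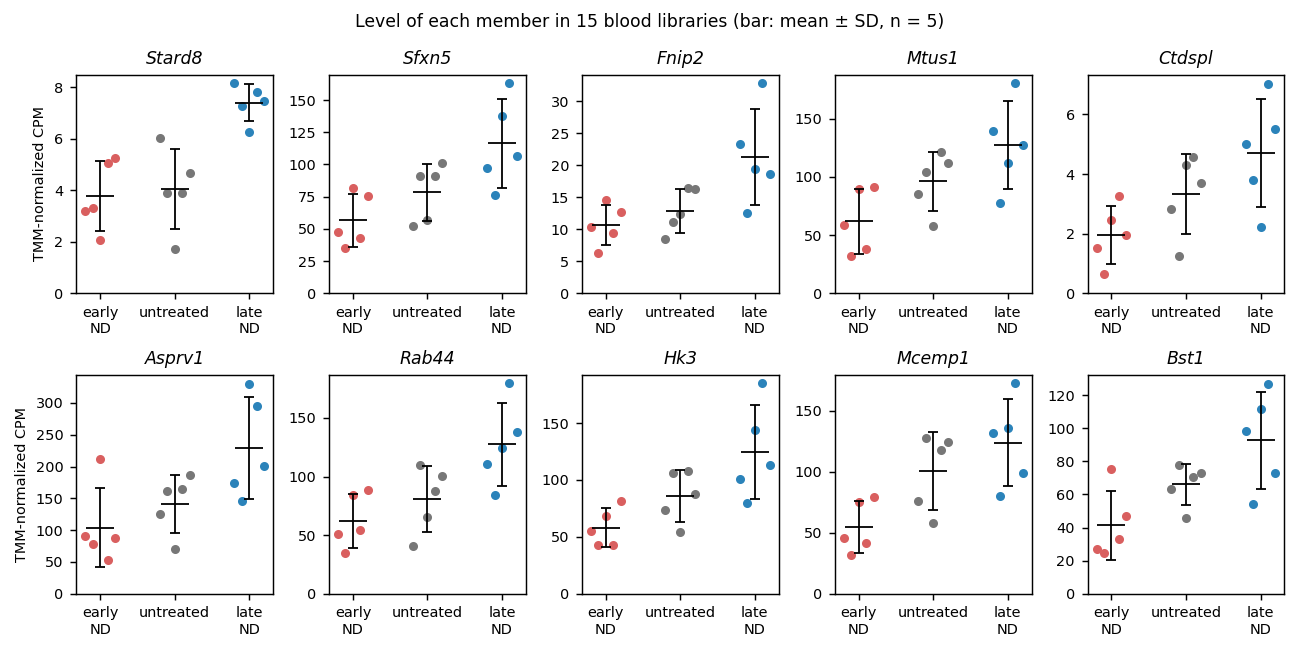
TMM-normalized CPM (linear axes from 0) of the 10 members in early ND, untreated and late ND blood. Each point is a library in replicate order and the bar is the mean ± SD (n = 5); Stard8 is the member whose late ND points, 6.26 to 8.17 CPM, all lie above both other groups.

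Across all genes tested, every late ND library exceeded every early ND library for 2.96% of 13421 genes, and among the members this held for 2 of 10, Stard8 and Mcemp1. It held against untreated blood for 1 member, Stard8, with 2.47% of all genes, and for untreated above early ND for 0 members, with 0.238% of all genes. The members were picked on the first of these contrasts, and the late ND libraries enter the second as well, so nothing is read from these shares.

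As a description, the fitted log2 fold changes of late over early ND ran from 1.01 ± 0.26 (SE) for Fnip2 to 1.33 ± 0.38 for Ctdspl, with 1.06 ± 0.23 for Stard8, 1.05 ± 0.26 for Sfxn5, 1.15 ± 0.35 for Asprv1, 1.11 ± 0.24 for Hk3 and 1.19 ± 0.27 for Mcemp1. Against untreated blood, sharing the late ND libraries, the log2 fold changes were smaller, from 0.29 ± 0.24 for Mcemp1 to 0.88 ± 0.23 for Stard8. Early ND against untreated blood gave values below 0 for all 10, from -0.14 ± 0.33 for Stard8 to -0.89 ± 0.29 for Mcemp1. Over all 13315 genes tested between late and early ND, 2.5% were called higher and 2.48% lower (edgeR quasi-likelihood test, adjusted p under 0.05).

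The neutrophil and T cell reference genes themselves differed between libraries. Csf3r had medians of 1496 CPM in late ND (1466 to 2586), 1455 in untreated (872.3 to 1635) and 942.1 in early ND blood (720.0 to 1735), and S100a8 of 2447, 2347 and 822.2 CPM. Cd3e had medians of 29.7 CPM in late ND (22.7 to 35.9), 36.5 in untreated (31.6 to 40.6) and 40.4 in early ND blood (24.1 to 41.5), and Cd8a of 34.2, 49.9 and 45.2 CPM. Replicate 3 of early ND stood apart from its group, with the lowest Cd3e (24.1 CPM) and Cd8a (23.4 CPM) and the highest Csf3r (1735 CPM) of the 5. The late ND against early ND log2 fold change was 0.87 ± 0.29 for Csf3r (adjusted p = 0.0936) and 1.21 ± 0.39 for S100a8 (adjusted p = 0.0865), and neither passed.

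To separate the members from the contrast that chose them, each library's value was set against the mean of its own group. Over the 15 libraries, such within-group deviations of log2 CPM gave a Pearson r with S100a8 of 0.97 for Mcemp1, 0.94 for Mtus1, 0.93 for Hk3, 0.91 for Bst1, 0.88 for Sfxn5, 0.77 for Asprv1, 0.75 for Fnip2 and 0.74 for Rab44. Their r with Csf3r ran from 0.72 for Fnip2 to 0.93 for Sfxn5. For Stard8 r was 0.23 with S100a8 and -0.22 with Csf3r, and for Ctdspl it was 0.18 and 0.04. The median over all genes was -0.0046 with S100a8 and -0.0034 with Csf3r, and the members' medians were 0.82 and 0.81 (Spearman's rank correlation 0.83 and 0.79). All of these values share the same libraries and the same normalization, and the correlations are a description.

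The T cell references Cd3e and Cd8a ran the other way for the same 8 members under TMM. The r of these members with Cd3e lay between -0.38 for Fnip2 and -0.77 for Asprv1, and with Cd8a between -0.37 for Hk3 and -0.66 for Asprv1. Stard8 stood at 0.33 with Cd3e and 0.19 with Cd8a, and Ctdspl at -0.05 and -0.41. For Stard8 those signs rested on replicate 3 of early ND, without which r was -0.04 with Cd3e and -0.37 with Cd8a. The members' median r of -0.48 with Cd3e and -0.54 with Cd8a turned to 0.51 and 0.46 when counts were scaled by library totals alone, a scaling under which the median slope of all genes also moved, to 0.87 on Cd3e and 0.71 on Cd8a. The reference genes were themselves tied within groups, with r of 0.79 between S100a8 and Csf3r, 0.71 between Cd3e and Cd8a and -0.74 between Csf3r and Cd3e.

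Without group centering, where the contrast that chose the members enters as well, their median r over the 15 libraries was 0.83 with S100a8, 0.88 with Csf3r, -0.61 with Cd3e and -0.53 with Cd8a. Stard8 then changed sign with 3 of the references, to 0.34 with Csf3r, -0.23 with Cd3e and -0.23 with Cd8a, and Ctdspl read 0.50 with S100a8 and 0.43 with Csf3r. Leaving out the 3 libraries poor in 18S RNA gave centered medians of 0.81, 0.83, -0.58 and -0.58. The members' centered r with the hemoglobin share lay between -0.51 for Asprv1 and 0.45 for Ctdspl, and with that share as a covariate in the fits below 8 members still passed on both neutrophil genes.

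**Figure D2:**
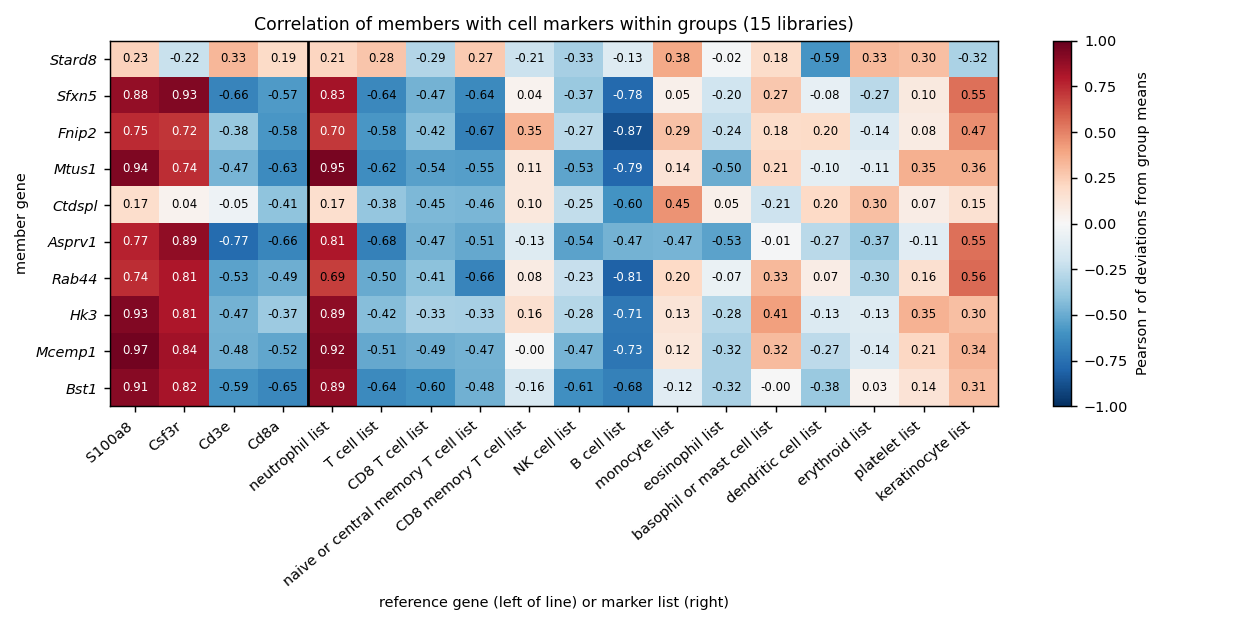
Pearson r of within-group deviations of log2 CPM between each member (rows) and 4 reference genes or the mean of 14 marker lists (columns) over 15 libraries, on a color scale from -1 to 1. Rows of 8 members are red under S100a8, Csf3r and the neutrophil list and blue under Cd3e, Cd8a and the T cell, CD8 T cell, naive or central memory and B cell lists, and under the CD8 memory T cell list they lie at -0.16 to 0.35 with 5 of the 8 above 0, and the rows of Stard8 and Ctdspl are pale in the neutrophil columns, at -0.22 to 0.23.

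The same 8 members also went with each other. Their 28 pairs had a within-group r of 0.54 to 0.94, with a median of 0.80, and these pairs mix members of both displayed sets. Pairs that include Stard8 had r of -0.12 to 0.21 (9 pairs), and pairs that include Ctdspl had r of -0.10 to 0.58 (9 pairs). The highest of these was Ctdspl with Fnip2 at 0.58, within the range of the 28 pairs, and Stard8 with Ctdspl gave 0.02.

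The association with each reference gene was then tested for every gene in an edgeR quasi-likelihood fit of the counts on group and the log2 CPM of the reference, with p-values adjusted over all 13420 genes. The slope is the log2 change of a gene for each doubling of the reference gene within groups. On S100a8, 8 of 10 members had a slope above 0 that passed at adjusted p under 0.05, where 6.5% of all genes did. The slopes were 0.73 ± 0.09 (SE) for Mtus1 (adjusted p = 6.3e-05), 0.72 ± 0.07 for Mcemp1 (adjusted p = 9.2e-06), 0.71 ± 0.15 for Asprv1 (adjusted p = 0.00869), 0.70 ± 0.09 for Bst1, 0.60 ± 0.09 for Sfxn5, 0.59 ± 0.07 for Hk3, 0.56 ± 0.13 for Rab44 and 0.53 ± 0.12 for Fnip2. Those of Ctdspl (0.19 ± 0.28, adjusted p = 0.776) and Stard8 (0.11 ± 0.18, adjusted p = 0.809) did not pass. Of the 8, 4 belonged to the CD8 memory set and 4 to the myeloid set. Leaving out 1 library at a time, 6 to 8 members passed on S100a8, with 560 to 874 of all genes.

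On Csf3r, 8 members again passed with a slope above 0, against 5.1% of all genes. Asprv1 had the steepest slope at 1.15 ± 0.16 (adjusted p = 0.000715). Sfxn5 followed at 0.94 ± 0.12 (adjusted p = 0.000434), then Mcemp1 at 0.92 ± 0.17, Bst1 at 0.91 ± 0.17, Rab44 at 0.89 ± 0.19, Mtus1 at 0.83 ± 0.21, Hk3 at 0.78 ± 0.16 and Fnip2 at 0.70 ± 0.20 (adjusted p = 0.0498). Ctdspl at 0.09 ± 0.42 (adjusted p = 0.938) and Stard8 at -0.25 ± 0.27 (adjusted p = 0.642) did not pass, and the wide SE of Ctdspl leaves a slope like that of the others within reach. Without replicate 3 of early ND, 5 members passed (Sfxn5, Asprv1, Rab44, Hk3 and Mcemp1). With the ND groups alone 4 did (Sfxn5, Asprv1, Hk3 and Bst1), and in both refits the slopes of all 8 stayed above 0. Calls over all genes fell as well, from 684 to 281 and 426 in these refits. For the 8 members, the 400 slopes on S100a8 and Csf3r from the alternative settings that keep these references all stayed above 0, and 36 of them lost the call. Most of these came from refits without 1 library, which share nearly all their data.

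On Cd3e, 0 members passed in either direction (edgeR), among 0% of all genes above 0 and 0.00745% below. At an unadjusted p under 0.05, 0 members lay above 0 and 4 below (Sfxn5, Asprv1, Rab44 and Bst1). Of all 13420 genes, 764 lay above 0 and 1226 below at that threshold. DESeq2 called 0 members above and 1 below, with 68 of all genes above and 145 below. The slopes ran from -1.73 ± 0.37 for Asprv1 (adjusted p = 0.139) to 0.63 ± 0.45 for Stard8 (adjusted p = 0.536). The T cell marker list shows how little this fit could detect, since 0 of its 17 tested genes passed on Cd3e although their median slope was 0.77. A slope on Cd3e was not particular to T cells either, the erythroid list having a median of 1.58.

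On Cd8a, 0 members passed in either direction (edgeR), where 0.753% of all genes passed above 0 and 3.2% below. At an unadjusted p under 0.05, 0 members lay above 0 and 5 below (Sfxn5, Fnip2, Mtus1, Asprv1 and Bst1). Of all 13420 genes, 1200 lay above 0 and 1547 below at that threshold. DESeq2 called 0 members above and 1 below, with 275 of all genes above. Its count of all genes below 0 is not given here, so nothing is read from that 1 member. The slope of Asprv1 was -1.22 ± 0.36 (adjusted p = 0.0714) and that of Bst1 -1.03 ± 0.32 (adjusted p = 0.0885), whereas Stard8 had 0.26 ± 0.41 (adjusted p = 0.767). This fit did detect T cell genes, with 6 of 18 T cell list genes above 0 (Lck, Cd3g, Cd3d, Trbc1, Trbc2 and Trac). Cd8b1, the partner chain of Cd8a, passed as well, at 0.71 ± 0.16 (adjusted p = 0.0169). It was not particular to T cells, since 2 of 8 NK cell and 1 of 12 B cell list genes also passed above 0. The median slopes of those 2 lists, 1.06 and 0.80, lay above the 0.60 of the T cell list. Scaling by library totals turned the Cd3e and Cd8a slopes of the 8 members above 0, to 0.54 at the lowest and 0.94 at the highest on Cd3e, against a median of 0.87 over all genes.

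**Figure D3:**
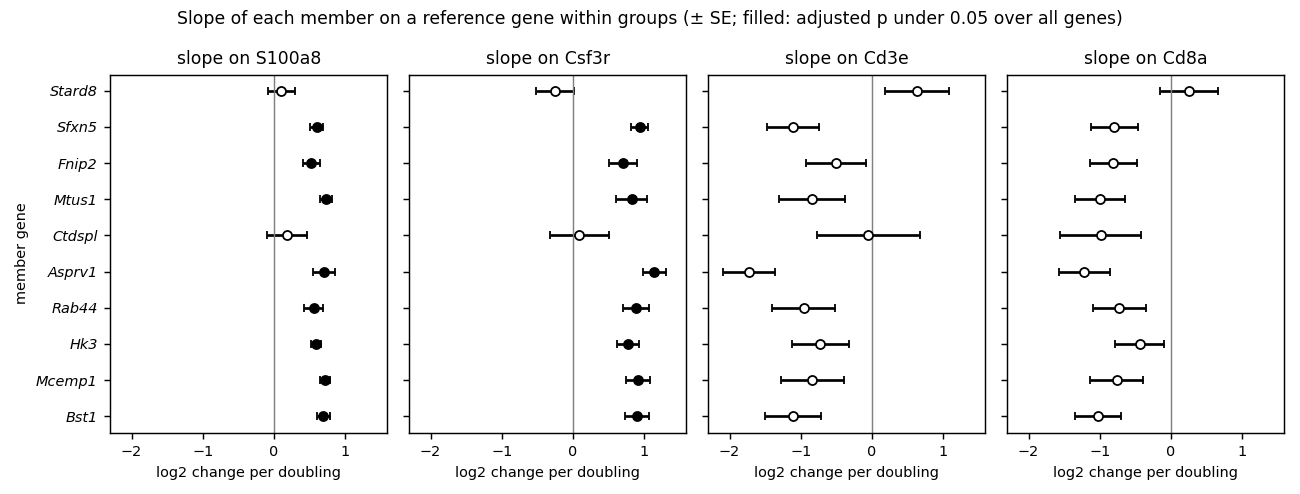
Slope of each member on S100a8, Csf3r, Cd3e and Cd8a, in log2 change per doubling of the reference gene within groups, with its SE (15 libraries). Filled points have an adjusted p under 0.05 over all genes tested: 8 members on each neutrophil gene, and 0 on each T cell gene.

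The difference between following Csf3r and following Cd3e was tested in a fit with both genes as terms. The slope on Csf3r minus that on Cd3e was above 0 for 9 of 10 members, the exception being Stard8 at -0.63 ± 0.47 (adjusted p = 0.618), and 0 members passed (edgeR), as did 0% of all 13419 genes. Asprv1 came nearest, at 1.49 ± 0.28 (adjusted p = 0.101), followed by Sfxn5 at 0.90 ± 0.22 (adjusted p = 0.149). At an unadjusted p under 0.05, 4 members lay above 0 (Sfxn5, Asprv1, Rab44 and Bst1). Of all 13419 genes, 1156 lay above 0 at that threshold. DESeq2 called 2 of the members and 138 of all genes above 0. Passing on Csf3r and missing on Cd3e is therefore not shown by this test to be a difference. Without the libraries poor in 18S RNA 2 members passed it, as did 391 of all genes.

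**Figure D4:**
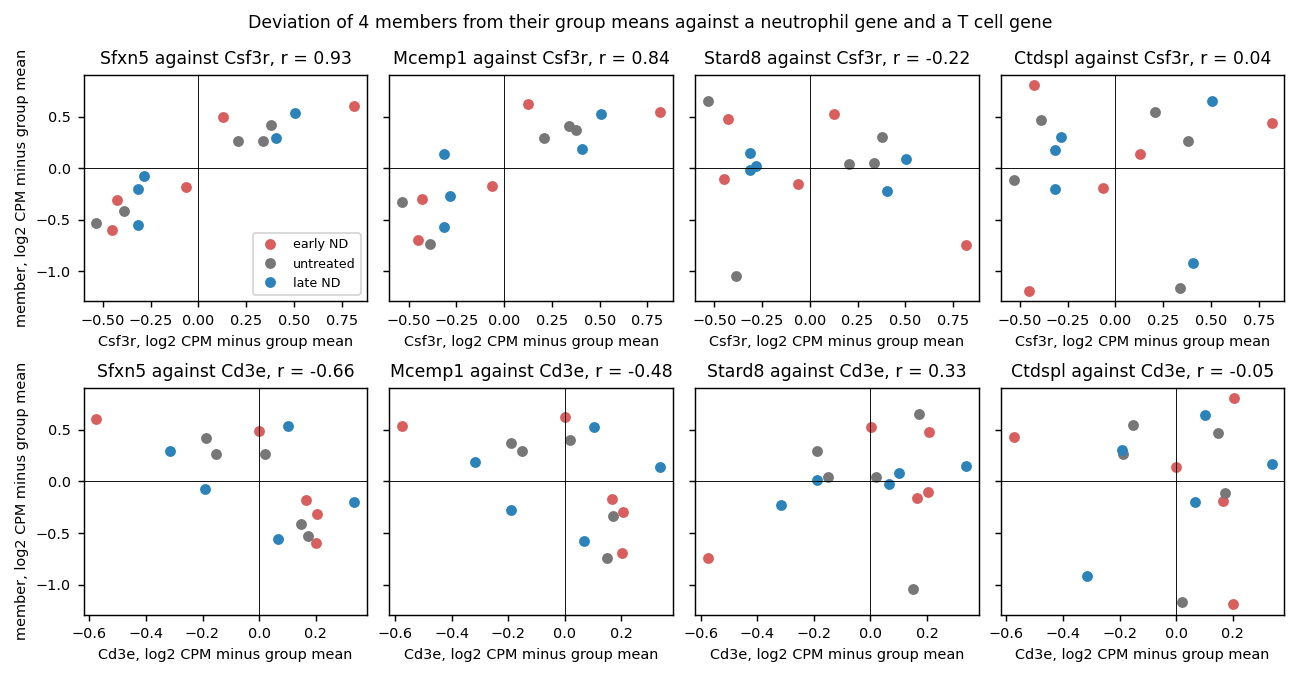
Deviation of log2 CPM from the group mean for Sfxn5, Mcemp1, Stard8 and Ctdspl (vertical axes) against that of Csf3r (upper row) and Cd3e (lower row), 1 point per library, colored by group. Sfxn5 and Mcemp1 rise with Csf3r (r of 0.93 and 0.84), and Stard8 and Ctdspl do not (r of -0.22 and 0.04); the point farthest right in the upper row and farthest left in the lower row is early ND replicate 3.

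Marker lists, 14 in all, gave the wider setting. The neutrophil list had the highest within-group r of all lists for the same 8 members, from 0.69 for Rab44 to 0.95 for Mtus1, and for 0 members was it any of the 4 T cell lists. For Stard8 the highest was the monocyte list at 0.38, and for Ctdspl also the monocyte list at 0.45, values too weak at such counts to name a source. An r below 0 was not particular to T cell genes, since the B cell list gave the other 8 members -0.47 (Asprv1) to -0.87 (Fnip2). With the CD8 memory T cell list those 8 lay from -0.16 for Bst1 to 0.35 for Fnip2. On S100a8, 19 of 23 tested neutrophil list genes passed above 0, and on Csf3r 15 of 23 did, with median slopes of 0.84 and 1.05. Of the T cell list 0 of 18 genes passed above 0 on either. The CD8 memory T cell list had 2 of 11 genes above 0 on both, Cd44 (0.50 ± 0.09 on S100a8, 0.61 ± 0.16 on Csf3r) and Il18rap (0.43 ± 0.11 and 0.78 ± 0.12), an adhesion receptor on many leukocytes and a chain of the IL-18 receptor.

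Between late and early ND themselves, few T cell list genes passed the test. The T cell list had 0 of 18 genes higher and 0 lower (edgeR, adjusted p under 0.05), their median log2 fold change being -0.31, and the CD8 memory T cell list 0 of 11 either way, with a median of 0.10. Of 16 naive or central memory genes, 0 were higher and 1 was lower, the transcription factor Lef1 at -0.58 ± 0.13 (adjusted p = 0.0292). The neutrophil list had 2 of 24 genes higher. These were Mmp8, a collagenase of neutrophil granules, at 1.81 ± 0.48 (adjusted p = 0.0496) and Cd177, a neutrophil surface protein, at 1.31 ± 0.33 (adjusted p = 0.0454). The list median was 1.06 and the median of all genes 0.01. The members' own median was 1.08, but they were chosen on this contrast, so nothing is read from its nearness to the list median. Without the 3 libraries poor in 18S RNA, the count over all genes fell to 4 higher and 0 lower.

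With the Csf3r level added to the group comparison, the fold changes of the members parted. Those of 8 members fell to between 0.12 ± 0.20 for Asprv1 and 0.46 ± 0.26 for Mcemp1 in late against early ND, with a median of 0.36. Stard8 instead read 1.40 ± 0.32 and Ctdspl 1.14 ± 0.54. In late ND against untreated blood the same covariate left Stard8 at 0.91 ± 0.28 and Ctdspl at 0.64 ± 0.47, with the other 8 between -0.16 and 0.38. In early ND against untreated blood all 10 remained below 0, from -0.01 for Rab44 to -0.73 for Ctdspl. These are descriptions of libraries that chose the members. Csf3r itself had its lowest median in early ND, although none of its group differences passed the edgeR test.

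**Figure D5:**
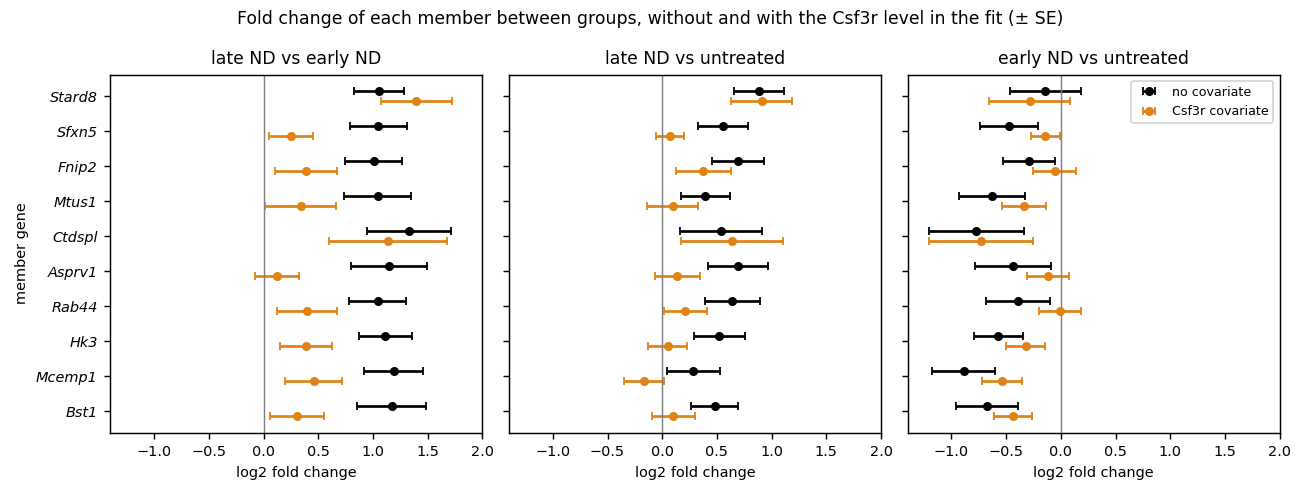
Log2 fold change (± SE, 5 libraries a group) of each member in the 3 group comparisons, without (black) and with (orange) the Csf3r level in the fit. In late against early ND the orange points of 8 members lie at 0.12 to 0.46, and those of Stard8 and Ctdspl at 1.40 and 1.14.

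The genes with the most similar within-group pattern, among genes with a mean of at least 5 CPM, differed by member. Nearest to Mcemp1 were Il36g, an IL-36 cytokine, and Fpr1, the formyl peptide receptor of neutrophils, both at r of 0.98. Nearest to Bst1 was Il1r2, the decoy IL-1 receptor, at 0.97, with Picalm (0.96) and P2ry13 (0.95). Hk3 had Il17ra, a chain of the IL-17 receptor, at 0.97, with Mboat7 and Gnai2. Mtus1 had Adam15, Sec14l1 and Lrg1 (0.96 to 0.97), Sfxn5 had Degs1, Fbxl5 and Arap3 (0.97 to 0.98), Fnip2 had Ipmk, Fgd4 and Cd244a (0.92 to 0.95), and Asprv1 had Lpcat2, Kif23 and Kctd11 (0.95 to 0.96). Rab44 had Gm15832, another member (Sfxn5, at 0.93) and Mfsd14b.

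Stard8 went most closely with Ptpn2, a tyrosine phosphatase of cytokine signaling, at 0.92, then with Cct8 and Fpgt, and Ctdspl with Sowahc at 0.91, then with Rala and Lrp5. The 100 nearest genes of each member were taken from 9518 searched (9519 for Ctdspl). At that share, lists of 46 or 23 genes would mostly give counts of 0 or 1, so nothing is read from such counts. Among the 100 nearest genes, 0 of 46 T cell list genes appeared for any member. Neutrophil list genes appeared for all 8 of the others, from 1 of 23 for Fnip2 and 2 for Rab44 to 9 for Bst1 and 11 for Mcemp1, and 0 appeared for Stard8 and Ctdspl.

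Because Asprv1 is best known from skin and the blood was drawn from the cheek, 14 keratinocyte genes were read beside it. Their summed level was 14 to 29.2 CPM in early ND, 14.4 to 32.6 in untreated and 13.9 to 22.4 in late ND blood, against 53.0 to 212, 70.2 to 186 and 146 to 330 CPM for Asprv1 alone. Of the 14, the most abundant was Sfn at 9.17 to 16.1 CPM, and 3 had no count in any library (Krt77, Flg and Dsg1a). Krt5 and Krt14, which define the basal layer, stayed at or below 3.64 and 0.81 CPM. Only 3 of the keratinocyte genes passed the filter and entered the list mean (Sfn, Perp and Sbsn). That mean still went with Asprv1 within groups at r of 0.55, its second highest list after the neutrophil list. It also did so with Sfxn5 (0.55) and Rab44 (0.56), and its part in these members' levels was not tested.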

How the data were processed

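Per the labels, RNA from at least 100 µL of cheek blood per mouse was sequenced as paired 150-base reads. The authors deposited raw counts of read pairs per gene, 1 table per mouse, made with STAR 2.7.9 (default options), SAMtools 1.7 and HTSeq 0.13.5 on GRCm39. The annotation release and strand setting are not given in the sources used here, and the submitters' processing notes also name mm10 with no role. Counter lines that name no gene were left out of library sizes; 43.6 to 48.0% of uniquely aligned pairs were counted on genes. GENCODE vM39 gave symbols and positions for 54749 of 55416 identifiers.

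Genes were filtered with filterByExpr and scaled by TMM in edgeR 4.0.16 (R 4.3.3), and log2 CPM used a prior count of 2. Group contrasts used the 2 groups compared, and slopes used all 15 libraries with group as a term. p-values were Benjamini-Hochberg adjusted over all genes tested, with a threshold of 0.05, and come from edgeR's quasi-likelihood test. Correlations carry no p. DESeq2 1.42.0, other scalings, filters and left-out libraries were alternatives. The members, the 4 reference genes and the 14 marker lists (177 entries) were chosen with earlier results of these data known. Named neighbors are the 3 genes of highest within-group r with a mean of at least 5 CPM. Markers were named where they passed a test or were the most abundant of their list.

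Tested on simulated data, the slope fit on Csf3r recovered 101 of 200 genes given a slope of 1 among 12992, with 5 false calls, and the late against early ND fit recovered 191 of 200 genes given a log2 fold change of 2 among 13122, with 13 false calls. Replicates are separate mice, and no libraries were identical.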

Additional observations from a re-analysis of the deposited data

Results flagged for a closer look

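The log2 CPM values of 42 groups of 5 libraries were examined (10 members and 4 reference genes in 3 groups). Of these groups, 2 held a library far from the rest, where chance alone gives about 1 in 20. Both were replicate 3 of early ND. Cd3e was at 24.1 CPM there, and on the log2 scale its gap to the nearest other early ND library was 0.739 of the group's range. Cd8a was at 23.4 CPM, with a gap of 0.8 of the range on the log2 scale. In the same library Csf3r was the highest of its group at 1735 CPM, as were Sfxn5 (81.8 CPM), Fnip2 (14.5 CPM), Asprv1 (211.7 CPM) and Bst1 (75.4 CPM), and Stard8 was the lowest at 2.05 CPM. Whether its cell makeup or its RNA set this library apart was not tested.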

How the results depend on the processing

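The 8 members' slopes on S100a8 and Csf3r stayed above 0 in all 400 values from alternatives that keep these references, of which 364 kept the call and 36 lost it. Most of these values came from refits without 1 library, which share nearly all their data. With scaling by library totals the median slope of all genes was itself above 0, at 0.35 on S100a8 and 0.52 on Csf3r, so the sign there says little. For other results the cause of a change was not tested. Fits on fewer libraries have less power, yet some of them called more genes than the main fit, as given below. With the ND groups alone, 4 members passed on Csf3r and 426 genes did, 15 genes passed above 0 on Cd8a, 0 below 0 on Cd3e and 1 above 0 for the Csf3r minus Cd3e difference, and Stard8 had -0.017 on S100a8 and Ctdspl 0.064 on Cd3e and -0.065 for the difference. Scaling by library totals, under which all genes had a median of 0.86 on the log2 scale between late and early ND, called 4249 genes above 0 on S100a8, 10640 on Csf3r, 9685 on Cd3e and 8954 on Cd8a, with 7 and 19 below 0 on Cd3e and Cd8a. It called 2 members above 0 on Cd3e and 2 on Cd8a, and 3 members and 68 genes for the difference. The slope of Stard8 on Csf3r was then 0.32. On Cd3e the slopes were 0.79 for Sfxn5 and for Mtus1, 0.62 for Fnip2, 0.74 for Asprv1, 0.94 for Rab44, 0.86 for Hk3, 0.88 for Mcemp1 and 0.54 for Bst1. On Cd8a they were 0.61 for Sfxn5, 0.35 for Fnip2, 0.47 for Mtus1, 0.57 for Asprv1, 0.70 for Rab44, 0.71 for Hk3, 0.63 for Mcemp1 and 0.36 for Bst1. The members' median r was 0.51 with Cd3e and 0.46 with Cd8a, and their median log2 fold change 1.90 in late against early ND (8923 genes higher, 137 lower) and 1.36 against untreated blood. DESeq2 size factors called 201 genes higher in late than early ND and gave Ctdspl 1.2e-05 on Cd3e and -0.0062 for the difference.

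With no filter on low counts, 12 genes passed above and 246 below 0 on Cd3e with 1 member below, 3 members and 923 genes passed below 0 on Cd8a, 3 genes passed for the difference, and 886 were higher in late ND. The DESeq2 test called 68 genes above and 145 below 0 on Cd3e with 1 member below, 275 above 0 on Cd8a with 1 member below, 2 members and 138 genes for the difference, and 769 higher and 670 lower genes in late against early ND. A prior count of 0.5 called 1 gene for the difference. Without the libraries poor in 18S RNA, 499 genes passed on S100a8, 75 above and 454 below 0 on Cd3e with 1 member below, 8 above and 160 below 0 on Cd8a with 1 member below, 2 members and 391 genes for the difference, and only 4 genes were higher and 0 lower in late against early ND. With the marker list as the reference, 154 genes passed above and 476 below 0 for the T cell list with 1 member below, 4 members and 670 genes for the difference, and Stard8 had 0.11 on the neutrophil list and -0.41 on the CD8 T cell list. With the hemoglobin share as a covariate, chosen after seeing the data, 8 members passed on S100a8 and on Csf3r, and 0 genes passed below 0 on Cd3e. The Csf3r covariate left a members' median of 0.39 in late against early ND, with 0 genes called higher and 0 lower, and Mcemp1 at -0.16 against untreated blood.

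Replicate numbers were shared between groups, but same-numbered libraries did not all deviate together: r ran from -0.18 to 0.46 between late and early ND, from 0.029 to 0.58 (mean 0.24) between late ND and untreated, where 3 of 5 correlated best with their own number, and from -0.24 to 0.08 between early ND and untreated. The labels tie the numbers to no shared litter or day, and they were taken not to pair the mice. A fit with the replicate block called 7 members on S100a8 and 7 on Csf3r, 514 genes on S100a8, 0 below 0 on Cd3e, and 0 above and 0 below 0 on Cd8a, and gave Ctdspl -0.28 on S100a8, -0.35 on Csf3r, 0.40 on Cd3e and -0.27 for the difference.

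Leaving out 1 library at a time gave 5 (without early ND replicate 3) to 8 members on Csf3r, with 281 (the same library) to 751 genes, and 560 (late ND replicate 4) to 874 genes on S100a8. On Cd3e it gave 0 to 50 genes above 0, 0 to 345 below (both highest without late ND replicate 3) and 0 to 1 members below. On Cd8a it gave 22 to 180 genes above 0 and 223 to 576 below, both lowest without early ND replicate 3, and 0 to 2 members below. The difference had 0 to 2 members and 0 to 353 genes, the most without late ND replicate 3. Late against early ND had 36 (without late ND replicate 4) to 1057 genes higher and 106 (without late ND replicate 3) to 553 lower, the highest of both without early ND replicate 3. Stard8 ranged from -0.056 to 0.24 on S100a8, from -0.42 to 0.013 on Csf3r, from -0.59 to 0.44 on Cd8a and from -0.31 to 0.023 in early ND against untreated blood. Ctdspl ranged from -0.22 to 0.29 on Csf3r, from -0.72 to 0.56 on Cd3e and from -0.56 to 0.71 for the difference.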
